A study of Homo sapiens with 60 samples.

Results

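The 40 genes described here carry a cell through G2 and mitosis. Entry into mitosis has 7 genes (CDK1, cyclins, CDC25 phosphatases and the transcription factor FOXM1). The others are mitotic kinases (4), spindle checkpoint proteins (4), the anaphase machinery (4), chromosome and kinetochore proteins (6), spindle proteins (8) and proteins of cytokinesis (7). They were chosen by symbol, and each symbol was matched through its Ensembl identifier to 1 of the 60675 rows of the count table. All 40 were among the 16924 genes with enough counts to be tested, and the lowest count of a member in any library was 209.

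RNA was sequenced from HepG2, a human hepatocellular carcinoma line that divides in culture, 24 h after treatment. The extracts at 20, 100 and 500 µg/mL were water extracts of the mixed prescriptions Yijin-tang (short name yijin) and Soshiho-tang (soshiho), and ethanol extracts of Liriopis seu Ophiopogonis Tuber (liriope), Schisandrae Fructus (schisandra), Longan Arillus (longan) and Zizyphi Semen (zizyphus). Each of these had 3 libraries per dose, except soshiho with 2. Ethanol extracts of Polygalae Radix (polygala, at 10, 50 and 250 µg/mL) and Aucklandiae Radix (aucklandia, at 11.2, 56 and 280 µg/mL) had 1 library per dose, and per the series text a top dose below 500 µg/mL was set by an inhibitory concentration. Vehicle, with 3 libraries, was DMSO, at 0.1% per the sample labels and 2% per the series text. All groups share 1 cell line and 1 time point. Whether the libraries of a group were grown as separate cultures is not in the labels, and the p-values therefore measure only how far these samples spread, which may be technical. Sample codes place the extracts in 4 pairs (yijin with soshiho, liriope with schisandra, longan with zizyphus, polygala with aucklandia) and vehicle in a code of its own, so treatment and code set cannot be told apart in a comparison with vehicle.

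A cell enters mitosis when CDK1 bound to cyclin B is switched on by CDC25 phosphatases, helped by the kinases PLK1 and Aurora A. The spindle checkpoint holds the anaphase-promoting complex and its activator CDC20 back until the chromosomes are attached to the spindle, after which securin and cyclin B are destroyed, separase opens the sister chromatids and the cell divides. Most of these genes are transcribed in late S phase, G2 and mitosis, through promoter elements bound by the DREAM repressor complex, by B-MYB and by FOXM1. In these bulk libraries, fewer cells in G2 and mitosis and less of these RNAs per cell cannot be told apart.

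The libraries held between 20.7 M and 38 M expected counts each, and levels are given as CPM, counts per M (mega) of a library size scaled by trimmed mean of M values. Among 51 pairs of replicate libraries 0 were identical. Replicate 1 of low-dose schisandra and replicate 2 of high-dose liriope stood apart from their groups, with SDs of the gene-wise log2 difference from the other replicates of 0.261 and 0.244, where the next library had 0.190. Counts of genes called or at an unadjusted p under 0.05 in comparisons that hold them are given with and without them, here or in the closing section. The summed level of hepatocyte and HepG2 markers was 47514 to 51900 CPM in vehicle. The 3 leukocyte markers summed to 47.8 to 50.0 CPM there, all of it from CD68, a lysosomal protein abundant in macrophages (48.5 CPM), with PTPRC and CD3E at 0 CPM. Over all tested genes the median change lay between -0.01 and 0.01 on the log2 scale in each high against low comparison and between -0.00 and 0.01 in each high-dose comparison with vehicle, and members' medians are read beside these.

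Levels per transcript length in vehicle spanned a wide range. TPX2, which activates Aurora A and nucleates spindle microtubules, had 92.9 CPM per kb of exon, and TOP2A, the topoisomerase that untangles chromosomes, had 92.4 CPM per kb. PLK1 had 75.7 and AURKA (Aurora A) 69.3 CPM per kb. CDC25C, a phosphatase that activates CDK1, had 5.72, the kinetochore motor CENPE 5.64 and the cytokinesis motor KIF14 4.51 CPM per kb. Near copies of members, such as PTTG2, PTTG3P and KIF4B, had at most 0.211 CPM in any library. KIF20A overlaps CDC23 (46.9 CPM in vehicle) and BRD8 (66.4 CPM) on the genome, and CDC25C overlaps FAM53C (68.5 CPM). The strand setting of the counting is not given in the sources used here, so reads of such overlapping genes may not have been told apart.

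Summed over the 40 genes, the level was 4857 to 5107 CPM in the vehicle libraries. Soshiho had 4683 and 4747 CPM at the low dose, 4814 and 4840 CPM at the medium dose and 4078 and 4109 CPM at the high dose. Schisandra had 4550 to 4843 CPM at the low dose, 4414 to 4496 CPM at the medium dose and 4181 to 4201 CPM at the high dose. In both extracts each high-dose library lay below each library of the lower doses. The highest low-dose value of schisandra belongs to replicate 1, the library that stood apart.

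**Figure D1:**
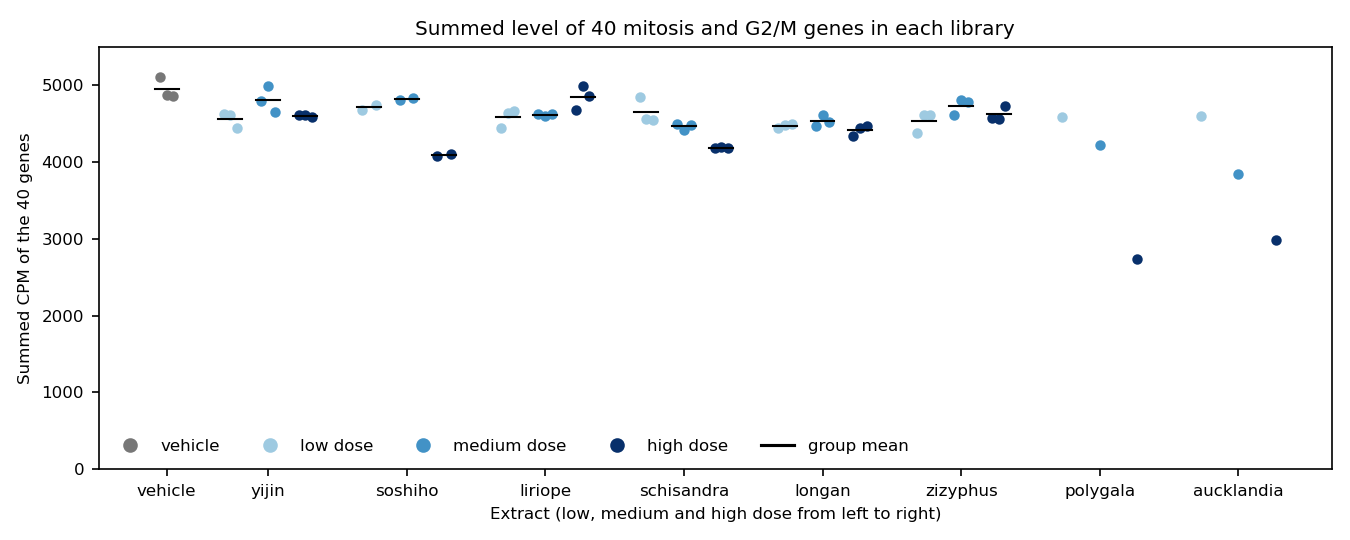
Summed level in CPM (y axis) of the 40 mitosis and G2/M genes in each library, by extract (x axis) and dose. Points are libraries and bars group means. The high-dose libraries of soshiho (4078 and 4109 CPM) and schisandra (4181 to 4201 CPM) lie below their own low-dose libraries, and the single high-dose libraries of polygala (2740 CPM) and aucklandia (2983 CPM) lie lowest of all.

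Soshiho at the high dose lowered 10 of the 40 genes relative to its low dose, and 0 were higher (edgeR quasi-likelihood test, Benjamini-Hochberg adjusted p under 0.05 over all tested genes). The 10 fell by 0.19 to 0.37 on the log2 scale. They were the spindle factor TPX2, the spindle motors KIF11 and KIF4A, the cytokinesis proteins KIF20A and PRC1, the kinases PLK1 and AURKA, the checkpoint kinase BUB1, TOP2A, and BIRC5 (survivin, a subunit of the chromosomal passenger complex). Of all tested genes 2.11% were lower in this comparison. The median change of the 40 was -0.19, with 37 below 0, beside a median of 0.00 and 49.2% below 0 over all tested genes. Before adjustment 25 of the 40 were lower at p under 0.05 and 0 were higher, where 6.99% of all genes were lower and 8.02% higher. The summed hepatocyte marker level was also lower at the high dose, 38672 to 40322 CPM, against 44801 to 46116 CPM at the low dose, and its part in the result was not tested.

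TPX2 had 229 and 236 CPM in the high-dose soshiho libraries, against 290 and 291 CPM in the low-dose libraries. Both high-dose libraries lay below the low-dose libraries, and the change was -0.32 ± 0.051 (log2, SE; edgeR adjusted p = 1.49e-05). KIF20A, the kinesin that carries the passenger complex to the midzone of the dividing cell, had 64.8 and 64.0 CPM at the high dose, against 84.1 and 82.8 CPM at the low dose. It showed the largest called fall, -0.37 ± 0.061 (edgeR adjusted p = 2.7e-05), again with no overlap. BIRC5 had 133 and 137 CPM at the high dose, against 158 and 164 CPM at the low dose (-0.26 ± 0.051, edgeR adjusted p = 0.000447), with the high-dose libraries the lower.

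Among the 4 mitotic kinases 2 fell. PLK1 had 261 and 271 CPM at the high dose, against 318 and 318 CPM at the low dose (-0.26 ± 0.062, edgeR adjusted p = 0.00595). AURKA had 159 and 160 CPM at the high dose, against 191 and 192 CPM at the low dose (-0.26 ± 0.062, edgeR adjusted p = 0.00537). For both kinases the doses did not overlap. NEK2, a centrosome kinase, had 28.5 and 25.7 CPM at the high dose, against 23.8 and 27.2 CPM at the low dose, and its doses overlapped (0.09, edgeR adjusted p = 0.641). AURKB, the kinase of the passenger complex, changed by -0.18 (edgeR adjusted p = 0.374).

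TOP2A had 536 and 539 CPM at the high soshiho dose, against 613 and 648 CPM at the low dose (-0.23 ± 0.051, edgeR adjusted p = 0.00239), and its doses did not overlap. Among the 8 spindle genes 3 fell (TPX2, KIF4A, KIF11), and among the 7 cytokinesis genes 2 (KIF20A, PRC1). Of the 4 checkpoint genes BUB1 fell (-0.22, edgeR adjusted p = 0.0177), while MAD2L1 and BUB1B changed by 0.03 and 0.00. Among the 7 entry genes 0 passed the test, with 3 lower at an unadjusted p under 0.05, and among the 4 anaphase genes 0 passed, with 1 lower at an unadjusted p under 0.05. CCNB1 (cyclin B1) had 114 and 113 CPM at the high dose, against 124 and 132 CPM at the low dose, a change of -0.17 just outside the threshold (edgeR adjusted p = 0.0519). The spindle protein DLGAP5 (-0.24, edgeR adjusted p = 0.0509) and ASPM (-0.38, edgeR adjusted p = 0.0619), which focuses spindle poles, lay near it too.

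PRC1, which bundles midzone microtubules, had 88.3 and 95 CPM at the high soshiho dose, against 102 and 107 CPM at the low dose (-0.19 ± 0.047, edgeR adjusted p = 0.00721). KIF4A, its partner motor, had 52.8 and 57.5 CPM at the high dose, against 61.7 and 65.3 CPM at the low dose (-0.20 ± 0.054, edgeR adjusted p = 0.0156). In both genes the high-dose libraries were the lower, without overlap. MKI67 (Ki-67, the proliferation antigen that coats mitotic chromosomes) had 446 and 413 CPM at the high dose, against 513 and 499 CPM at the low dose, and CDC20 had 98.2 and 98.8 CPM at the high dose, against 114 and 109 CPM at the low dose. Neither overlapped, yet neither passed (-0.24 and -0.17, edgeR adjusted p = 0.285 and 0.176). CDK1, with 53.4 and 54.5 CPM at the high dose, against 56.4 and 59.1 CPM at the low dose, and FOXM1, with 166 and 177 CPM at the high dose, against 175 and 176 CPM at the low dose, did not pass either (-0.10 and -0.04, edgeR adjusted p = 0.616 and 0.842).

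Individual soshiho libraries weighed on the count. It was 5 without high-dose replicate 2 and 3 without low-dose replicate 3, with the lone library of a dose then assumed to vary like the other groups. TPX2, KIF20A and BIRC5 kept an edgeR adjusted p under 0.05 whichever single soshiho library was left out. TOP2A and AURKA lost their calls without low-dose replicate 3 (edgeR adjusted p = 0.0994 and 0.0635), KIF4A and PRC1 without that library or high-dose replicate 2, and PLK1 without either low-dose library or high-dose replicate 2. The count was 16 without the 2 libraries of other extracts that stood apart, and 25 when only the compared groups were fitted. The share of all genes called in the same fits is not set beside these counts, so they show only how far the count moved.

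Schisandra at the high dose lowered 16 of the 40 genes relative to its low dose, and 0 were higher, with 3.62% of all tested genes lower. The called genes fell by 0.17 to 0.36 on the log2 scale. They included the cyclins CCNB1 and CCNA2, the phosphatase CDC25C, the kinases AURKA and NEK2, the activator of the anaphase-promoting complex CDC20, and TOP2A with the kinetochore proteins CENPE and CENPF. The spindle proteins TPX2, DLGAP5, HMMR, KIF11 and KIF4A and the cytokinesis proteins ECT2 and KIF23 made up the rest. The median change of the 40 was -0.18, with 36 below 0, and 28 were lower and 1 (CDC25B) higher at an unadjusted p under 0.05. Over all genes the median was -0.01, with 52.6% below 0, and 10.6% were lower and 9.64% higher at that p. Without the 2 libraries that stood apart the members' median was -0.11, 33 were below 0, and 15 were lower and 1 higher at an unadjusted p under 0.05. Of all genes 7.01% were then lower and 7.78% higher at that p. Hepatocyte markers summed to 45747 to 48006 CPM at the high dose, against 45498 to 48580 CPM at the low dose, so that their ranges overlapped.

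CCNB1 had 110, 111 and 110 CPM at the high schisandra dose, against 137, 128 and 122 CPM at the low dose. The 3 high-dose libraries were nearly equal and all lower (-0.23 ± 0.043, edgeR adjusted p = 0.000303). TPX2 had 259, 264 and 253 CPM at the high dose, against 313, 287 and 289 CPM at the low dose (-0.20 ± 0.041, edgeR adjusted p = 0.00101), without overlap. TOP2A had 535, 549 and 548 CPM at the high dose, against 648, 616 and 587 CPM at the low dose (-0.18 ± 0.042, edgeR adjusted p = 0.00318), also without overlap.

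CENPE, the motor that moves chromosomes to the spindle equator, showed the largest called fall. It had 41.3, 38.8 and 40.9 CPM at the high dose, against 55.0, 50.7 and 49.6 CPM at the low dose (-0.36 ± 0.093, edgeR adjusted p = 0.0095). AURKA had 165, 168 and 163 CPM at the high dose, against 209, 183 and 182 CPM at the low dose (-0.21 ± 0.051, edgeR adjusted p = 0.00493). For both genes the high-dose libraries were the lower without overlap, and for AURKA the low-dose replicate 1 was far above the other low-dose libraries. CDC20 had 100, 99.1 and 97.0 CPM at the high dose, against 109, 114 and 112 CPM at the low dose (-0.18 ± 0.056, edgeR adjusted p = 0.0449), without overlap.

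Low-dose replicate 1 was the highest low-dose library for several of these genes. DLGAP5 had 36.3, 35.3 and 38 CPM at the high dose, against 52.8, 39.9 and 40.8 CPM at the low dose (-0.29 ± 0.062, edgeR adjusted p = 0.00128). Without that library its change was -0.15 (edgeR adjusted p = 0.122). HMMR, a spindle-pole protein, had 34.4, 35.1 and 34.0 CPM at the high dose, against 46.1, 40.6 and 39.0 CPM at the low dose (-0.28 ± 0.060, edgeR adjusted p = 0.00149), and -0.20 without it (edgeR adjusted p = 0.0575). Without low-dose replicate 1 of schisandra 4 members were called, without high-dose replicate 1 or without high-dose replicate 3 the count was 10 each, and without both libraries that stood apart it was 8. Fitted on the compared groups alone, 1 of the 40 was called. The share of all genes called in these alternative fits is not set beside the counts. CCNB1 and TPX2 kept their calls whichever single schisandra library was left out, while CENPE (-0.31, edgeR adjusted p = 0.0895), TOP2A (-0.14, 0.0574), AURKA (-0.14, 0.137) and KIF11 (-0.12, 0.193) lost theirs without low-dose replicate 1. CENPE also lost its call without high-dose replicate 2, and CDC20 whichever of the 6 libraries was left out (edgeR adjusted p = 0.0738 to 0.145).

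Some central genes did not pass in schisandra. PLK1 had 284, 288 and 270 CPM at the high dose, against 289, 302 and 291 CPM at the low dose (-0.07, edgeR adjusted p = 0.508), with all high-dose libraries slightly lower. FOXM1, the transcription factor of the G2 programme, had 178, 175 and 176 CPM at the high dose, against 158, 170 and 181 CPM at the low dose (0.06, edgeR adjusted p = 0.461), with overlap. CDK1 had 54.5, 56.9 and 54.5 CPM at the high dose, against 73.4, 54.9 and 54.6 CPM at the low dose, where replicate 1 alone was high (-0.15, edgeR adjusted p = 0.134). MKI67 had 425, 405 and 436 CPM at the high dose, against 446, 481 and 507 CPM at the low dose, all lower (-0.18, edgeR adjusted p = 0.256). The checkpoint genes gave 0 of 4 calls, with 2 lower at an unadjusted p under 0.05. CCNB2 (-0.23) and BUB1 (-0.14) lay just outside the threshold, at adjusted p of 0.0551 and 0.0548 by edgeR.

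**Figure D2:**
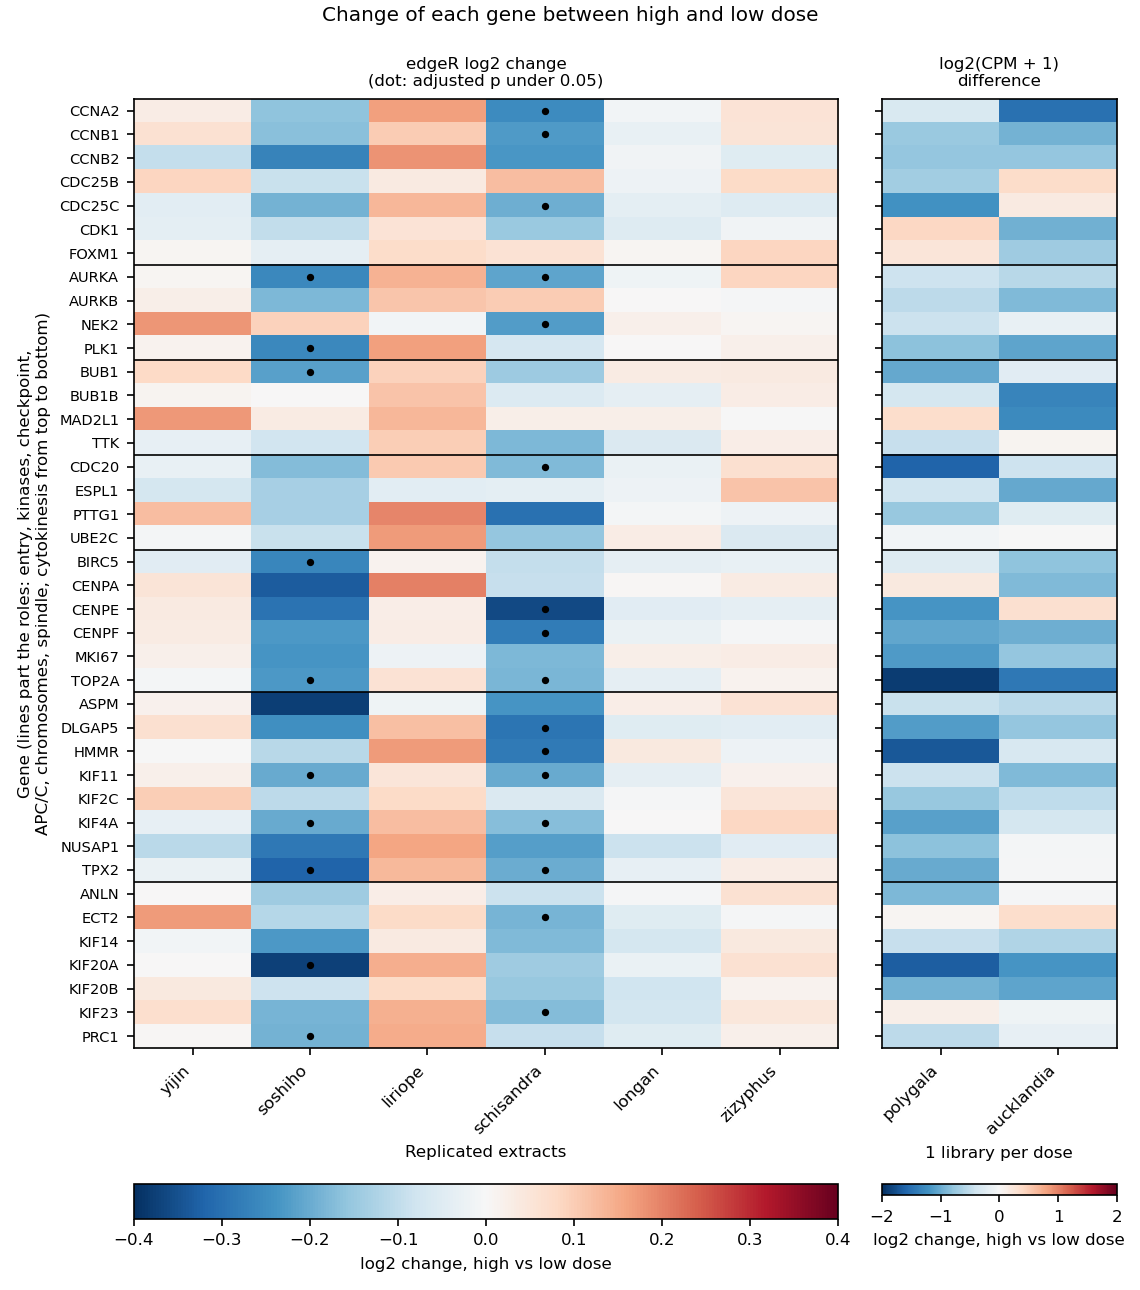
Change of each of the 40 genes (rows, parted by role) between the high and the low dose of each extract (columns), on the log2 scale, with its own colour scale for the 2 extracts with 1 library per dose. Dots mark an adjusted p under 0.05, of which soshiho has 10, schisandra 16 and the other replicated extracts 0.

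**Figure D3:**
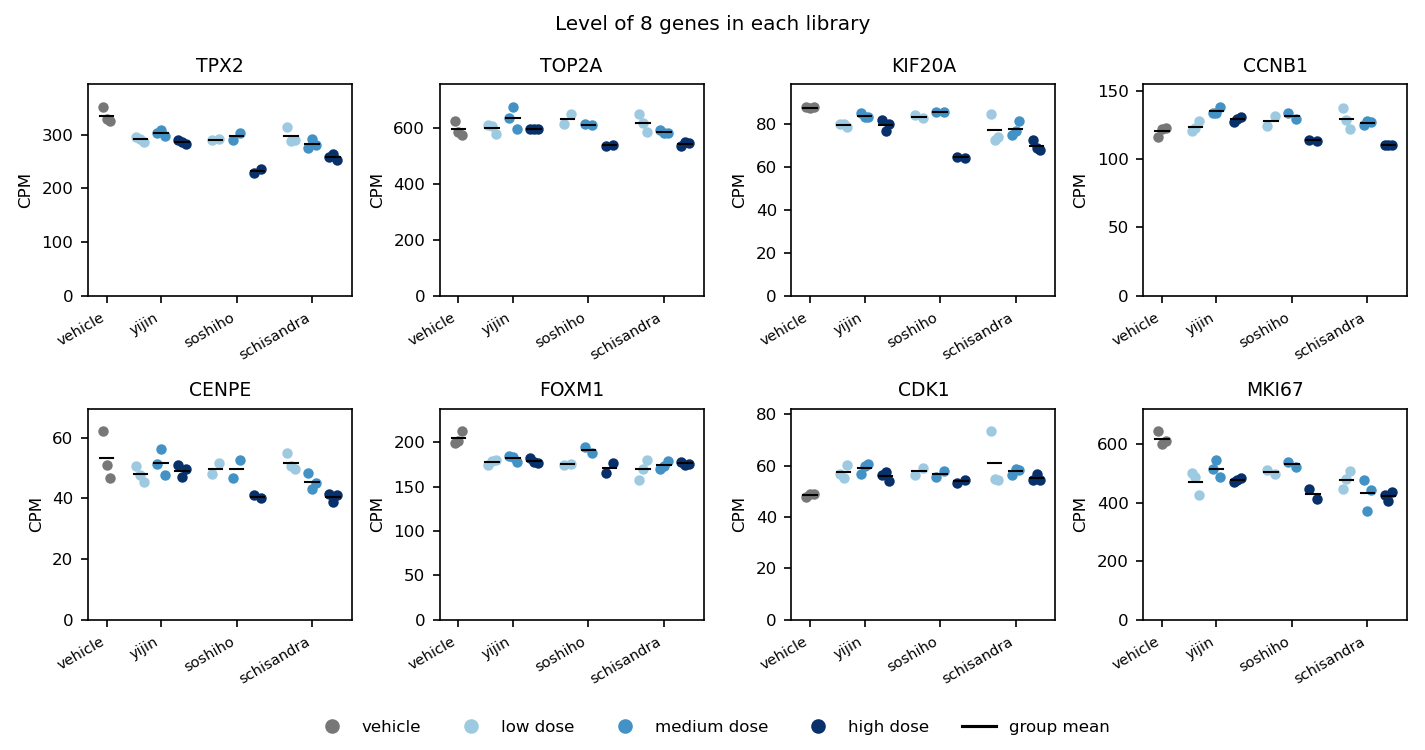
Level in CPM (y axis) of TPX2, TOP2A, KIF20A, CCNB1, CENPE, FOXM1, CDK1 and MKI67 in each library of vehicle, yijin, soshiho and schisandra, with points for libraries and bars for group means. TPX2 lies at 229 and 236 CPM in high-dose soshiho, below every other library shown, while CDK1 is above the vehicle libraries at every dose of the 3 extracts.

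Soshiho and schisandra share no libraries in these high against low comparisons. The genes called in both were AURKA, KIF11, KIF4A, TOP2A and TPX2. These 5 genes are 50.0% of the 10 soshiho calls and 31.2% of the 16 schisandra calls. Changes below 0 in both were seen in 34 of the 40, with 37 below 0 in soshiho and 36 in schisandra. With so many below 0 in each extract the 34 was nearly fixed in advance. Calls as many as 10 and 16 of 40 also share some genes without a link, and no overlap over all genes was computed. Across the 40 genes the 2 sets of changes had a Pearson correlation of 0.34. When the difference between the 2 dose responses was tested directly, 0 of the 40 differed in edgeR (0.502% of all genes were lower in soshiho) and 0 in DESeq2. At an unadjusted p under 0.05 in edgeR, 5 were lower and 1 higher in soshiho, beside 4.76% and 5.48% of all genes. The 95% interval of soshiho minus schisandra ran from -0.25 to 0.01 for TPX2, from -0.18 to 0.09 for TOP2A and from -0.08 to 0.20 for CCNB1. For KIF20A it ran from -0.39 to -0.07 (edgeR adjusted p = 0.183) and for NEK2 from 0.13 to 0.50 (edgeR adjusted p = 0.0906), and neither passed after adjustment. Without the 2 libraries that stood apart 12 were lower and 1 higher at an unadjusted p under 0.05, beside 4.89% and 4.47% of all genes. In that setting 1 gene differed after adjustment, and 1 did without low-dose replicate 1 or low-dose replicate 3 of schisandra alone.

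Promoter windows from RefSeq (GRCh38.p14, 250 bases before to 50 after the annotated start) were matched for 34 of the 40 genes. They are shown for CCNB1 and DLGAP5, which had among the smallest p in schisandra, and for KIF11, KIF4A and TOP2A, called in both soshiho and schisandra and chosen after their values were seen. Capitals mark the cell cycle homology region core (CHR, TTTGAA or TTCGAA), the element that DREAM and B-MYB complexes bind, and the CCAAT box bound by NF-Y, each on either strand, so that TTCAAA and ATTGG mark the opposite strand. Each window is written 5′ to 3′ on the gene's strand.
CCNB1, chr5:69166900-69167199, plus strand: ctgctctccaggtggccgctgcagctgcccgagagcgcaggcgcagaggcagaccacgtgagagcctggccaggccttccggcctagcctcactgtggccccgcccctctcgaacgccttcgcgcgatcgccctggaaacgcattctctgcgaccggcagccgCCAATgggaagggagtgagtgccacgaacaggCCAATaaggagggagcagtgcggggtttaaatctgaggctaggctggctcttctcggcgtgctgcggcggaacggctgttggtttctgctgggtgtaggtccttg
DLGAP5, chr14:55191536-55191835, minus strand: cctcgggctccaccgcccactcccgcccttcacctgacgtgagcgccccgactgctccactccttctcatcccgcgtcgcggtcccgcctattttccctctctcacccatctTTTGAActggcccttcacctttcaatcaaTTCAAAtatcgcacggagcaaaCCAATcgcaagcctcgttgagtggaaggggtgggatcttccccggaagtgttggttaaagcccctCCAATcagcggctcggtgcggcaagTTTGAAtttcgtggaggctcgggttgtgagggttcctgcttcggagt
KIF11, chr10:92592880-92593179, plus strand: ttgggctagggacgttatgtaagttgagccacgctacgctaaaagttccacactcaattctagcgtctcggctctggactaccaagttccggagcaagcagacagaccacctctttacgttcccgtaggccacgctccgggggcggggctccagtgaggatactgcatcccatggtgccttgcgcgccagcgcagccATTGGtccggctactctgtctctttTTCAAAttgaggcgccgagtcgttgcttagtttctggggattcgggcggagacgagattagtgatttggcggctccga
KIF4A, chrX:70289854-70290153, plus strand: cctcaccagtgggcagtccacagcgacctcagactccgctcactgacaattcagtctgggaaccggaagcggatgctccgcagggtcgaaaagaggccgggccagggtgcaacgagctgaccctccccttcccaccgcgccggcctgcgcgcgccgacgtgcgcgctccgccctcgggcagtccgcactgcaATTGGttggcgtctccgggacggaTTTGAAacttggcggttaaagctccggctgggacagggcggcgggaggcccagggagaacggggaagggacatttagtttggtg
TOP2A, chr17:40417847-40418146, minus strand: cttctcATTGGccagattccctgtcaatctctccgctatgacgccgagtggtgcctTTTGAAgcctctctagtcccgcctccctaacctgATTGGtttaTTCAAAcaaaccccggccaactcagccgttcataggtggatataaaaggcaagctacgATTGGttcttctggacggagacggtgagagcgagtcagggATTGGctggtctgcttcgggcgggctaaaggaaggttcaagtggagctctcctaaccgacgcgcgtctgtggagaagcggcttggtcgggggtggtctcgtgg

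In KIF11 a CHR core begins 28 bases before the start and a CCAAT box 53 before it, and in KIF4A they begin 34 and 58 before it. TOP2A holds 2 CHR cores and 4 CCAAT boxes, DLGAP5 holds 3 and 2, and the CCNB1 window holds 2 CCAAT boxes and no CHR core. Over the matched members 24 windows (70.6%) held a CHR core, beside 16.6% of the 27305 RefSeq windows and 11.5% of the 11355 windows of tested genes. A CCAAT box was in 28 (82.4%), beside 35.7% of all windows and 36.5% of those of tested genes. Both were in 22 windows (64.7%, beside 6.58% and 4.85%). An E2F-type sequence (the letters TTCCCGC, the variant TTGGCGC or the further variant TTCGCGC, on either strand) was in 8 (23.5%), beside 11.2% of all windows and 17.3% of those of tested genes. Such a match is a run of letters and not a measured binding site. The median change between high and low dose was -0.20 over members with a CHR core and -0.16 over those without it in soshiho, and -0.17 with it and -0.21 without it in schisandra, a difference that was not tested. With a CCAAT box the medians were -0.20 in soshiho and -0.18 in schisandra, and without it, in 6 genes, -0.12 and -0.07.

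In the other 4 replicated extracts 0 of the 40 genes differed between high and low dose. Yijin called 7.84% of all genes, in either direction, and no member. Its members' median change was 0.01, and 4 members were higher and 0 lower at an unadjusted p under 0.05 in edgeR, with 1 called by DESeq2. Of all genes 9.53% were higher and 8.96% lower at that p, so the 4 higher members were near the share over all genes. NEK2 had 26.7, 25.9 and 26.4 CPM at the high yijin dose, against 21.6, 24.2 and 24.0 CPM at the low dose, without overlap (0.18, edgeR adjusted p = 0.0575). ECT2, which starts the contractile ring, had 75.9, 78.5 and 75.4 CPM at the high dose, against 70.4, 67.2 and 66.6 CPM at the low dose, also without overlap (0.17, edgeR adjusted p = 0.0587). The yijin count was 2 with only the compared groups fitted and 3 without the 2 libraries that stood apart.

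Liriope called 0.0236% of all genes and no member, but 36 of the 40 changes were above 0 (median 0.10), and 15 were higher and 0 lower at an unadjusted p under 0.05 in edgeR, with 0 called by DESeq2. Over all genes the median was 0.01, 51.9% were above 0, and 4.57% were higher and 3.44% lower at that p. Without the 2 libraries that stood apart the members' median was 0.06, 35 were above 0, and 6 were higher and 0 lower at an unadjusted p under 0.05, beside 2.55% of all genes higher. PLK1 had 317, 380 and 300 CPM at the high liriope dose, against 301, 309 and 282 CPM at the low dose (0.16, edgeR adjusted p = 0.52). The doses overlapped, and the highest value belongs to replicate 2, the library that stood apart. Longan (0.0177% of all genes called, members' median -0.02) had 0 members at an unadjusted p under 0.05 in edgeR and 0 in DESeq2. Zizyphus (0.0414%, median 0.02) had 1 higher, FOXM1 (0.09), at an unadjusted p under 0.05 in edgeR and 0 in DESeq2. Of all genes 2.37% were higher at that p in zizyphus.

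The medium dose, 100 µg/mL, separated no member from the low dose in any of the 6 replicated extracts by edgeR or DESeq2. Of all genes, 0.00591% were called in yijin, 0.124% in soshiho, 0% in liriope, 0.065% in schisandra, 0% in longan and 0.00591% in zizyphus. At an unadjusted p under 0.05, schisandra had 7 members lower and 0 higher, among them DLGAP5 (-0.18, edgeR adjusted p = 0.279). Of all genes 7.00% were lower and 5.24% higher at that unadjusted p in schisandra. Without the 2 libraries that stood apart schisandra had 1 lower and 1 higher, beside 4.16% and 3.79% of all genes, and its members' median was -0.01. Yijin had 5 higher and 0 lower, soshiho and zizyphus 1 higher each, and liriope and longan 0. Of all genes 2.42% were higher at that unadjusted p in yijin, 2.82% in soshiho and 1.54% in zizyphus. The schisandra median was -0.07 and the soshiho median 0.04, so that the level in soshiho did not step down before the high dose. The members' median was 0.08 in yijin, with 37 above 0, and 0.06 in zizyphus, with 33 above 0. Of all genes 50.8% were above 0 in yijin and 50.5% in zizyphus. In longan and liriope the members' medians were 0.03 and 0.02. Without low-dose replicate 2 of schisandra 1 member was called in its medium against low comparison.

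The dose responses of pairs of extracts were then compared directly. Schisandra's response was lower than that of liriope in 16 of the 40 genes, where 2.13% of all genes were lower. TPX2 (-0.33 ± 0.058, edgeR adjusted p = 0.000268), CCNB1 (-0.33 ± 0.060, 0.000429), HMMR (-0.45 ± 0.085, 0.000569) and AURKA (-0.35 ± 0.071, 0.00171) differed most clearly. Both libraries that stood apart enter this comparison, and without them 7 members differed. The count was 8 without low-dose replicate 1 of schisandra and 0 with only the compared groups fitted. At an unadjusted p under 0.05 in edgeR 30 members were lower and 0 higher, beside 10.5% and 8.10% of all genes. Without both libraries that stood apart 21 were lower and 0 higher at that p, beside 5.72% and 6.19% of all genes.

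For soshiho minus yijin 40 of the 40 differences were below 0 (median -0.20), beside 49.6% of all genes (median 0.00). At an unadjusted p under 0.05 in edgeR 20 members were lower and 0 higher, beside 3.66% and 4.93% of all genes. After adjustment soshiho's response was lower than yijin's in 3 genes, KIF20A (-0.37 ± 0.079, edgeR adjusted p = 0.0060), TPX2 (-0.30 ± 0.066, 0.0114) and BUB1 (-0.30 ± 0.076, 0.0412), where 0.195% of all genes were lower. This count was 1 without soshiho high-dose replicate 2 or low-dose replicate 3, 0 without soshiho low-dose replicate 2, 9 without the 2 libraries that stood apart and 13 with only the compared groups fitted. Schisandra's response was lower than yijin's in 4 genes, CCNB1 (-0.29), NEK2 (-0.40), ECT2 (-0.36) and DLGAP5 (-0.36), where 0.467% of all genes were lower. No call of this comparison was left without low-dose replicate 1 of schisandra, without the 2 libraries that stood apart or with only the compared groups fitted. The count was 2 without schisandra high-dose replicate 1, yijin high-dose replicate 2, or yijin low-dose replicate 2 or 3, 7 without schisandra low-dose replicate 2 and 8 without schisandra low-dose replicate 3. At an unadjusted p under 0.05 in edgeR 18 members were lower and 0 higher (median -0.15), beside 7.52% and 6.36% of all genes (median -0.01). Without the 2 libraries that stood apart 16 were lower and 0 higher (median -0.13), beside 4.17% and 4.89% of all genes (median 0.00). Longan and zizyphus differed in 0 members (0% of all genes lower), with 0 at an unadjusted p under 0.05 in edgeR and 0 in DESeq2.

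Against vehicle, MKI67 was lower at the high dose of all 6 replicated extracts, by 0.34 to 0.55 on the log2 scale. It had 446 and 413 CPM in high-dose soshiho, 425, 405 and 436 CPM in high-dose schisandra and 494, 491 and 483 CPM in high-dose liriope, against 644, 599 and 611 CPM in vehicle. No library of the 6 extracts reached the vehicle range at any dose. In longan MKI67 had 413, 476 and 462 CPM at the low dose, beside 419, 473 and 482 CPM at the high dose. The difference of MKI67 from vehicle was thus present at the low dose and is not particular to the high dose. FOXM1, PLK1 and TPX2 were lower in 5 extracts, all but liriope. All these comparisons share the same 3 vehicle libraries, so they are not separate tests.

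Soshiho at the high dose had 27 genes lower and 1 higher than vehicle, where 11.1% of all tested genes fell and 10.5% rose. The members' median was -0.21. TPX2 had 229 and 236 CPM in high-dose soshiho, against 351, 328 and 326 CPM in vehicle (-0.53 ± 0.047, edgeR adjusted p = 8.07e-12). KIF20A had 64.8 and 64.0 CPM in high-dose soshiho, against 87.8, 87.3 and 87.9 CPM in vehicle (-0.44 ± 0.057, edgeR adjusted p = 6.74e-08). Neither gene overlapped between the groups. All 8 spindle genes and 5 of the 7 cytokinesis genes fell, while NEK2 was higher (0.25, edgeR adjusted p = 0.00458).

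In high-dose schisandra 25 genes were lower than in vehicle and 2 higher, where 11.6% of all genes fell and 10.4% rose. TPX2 changed by -0.37 ± 0.041 (edgeR adjusted p = 5.42e-09), PLK1 by -0.36 ± 0.051 (edgeR adjusted p = 9.3e-07) and MKI67 by -0.55 ± 0.090 (edgeR adjusted p = 1.13e-05). CDK1 had 54.5, 56.9 and 54.5 CPM in high-dose schisandra, against 47.9, 48.9 and 49.1 CPM in vehicle, with every high-dose library the higher (0.19, edgeR adjusted p = 0.0241). MAD2L1, the checkpoint protein that binds CDC20, was higher by the same amount (0.19, edgeR adjusted p = 0.0286).

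High-dose longan had 16 genes lower than vehicle and 0 higher (10.4% of all genes fell and 9.2% rose), with the smallest p in TPX2 (-0.31) and PLK1 (-0.27) and the largest difference in MKI67 (-0.43). Yijin had 7 lower and 3 higher (12.3% fell, 11.1% rose), the 3 being MAD2L1 (0.24), NEK2 (0.21) and CDK1 (0.20). Zizyphus had 4 lower and 1 higher, CDK1 (8.95% fell, 8.04% rose). Liriope had 1 lower, MKI67, and 4 higher, CDK1 (0.27), CDC25C (0.22), MAD2L1 (0.19) and CCNB1 (0.17), where 8.59% of all genes fell and 8.25% rose. CDK1 was thus higher in 4 extracts, by 0.19 to 0.27. Its low-dose libraries also lay above the vehicle libraries in every replicated extract, in schisandra at 73.4, 54.9 and 54.6 CPM. The shares of members called in either direction in yijin, zizyphus and liriope were near or below those over all genes.

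**Figure D4:**
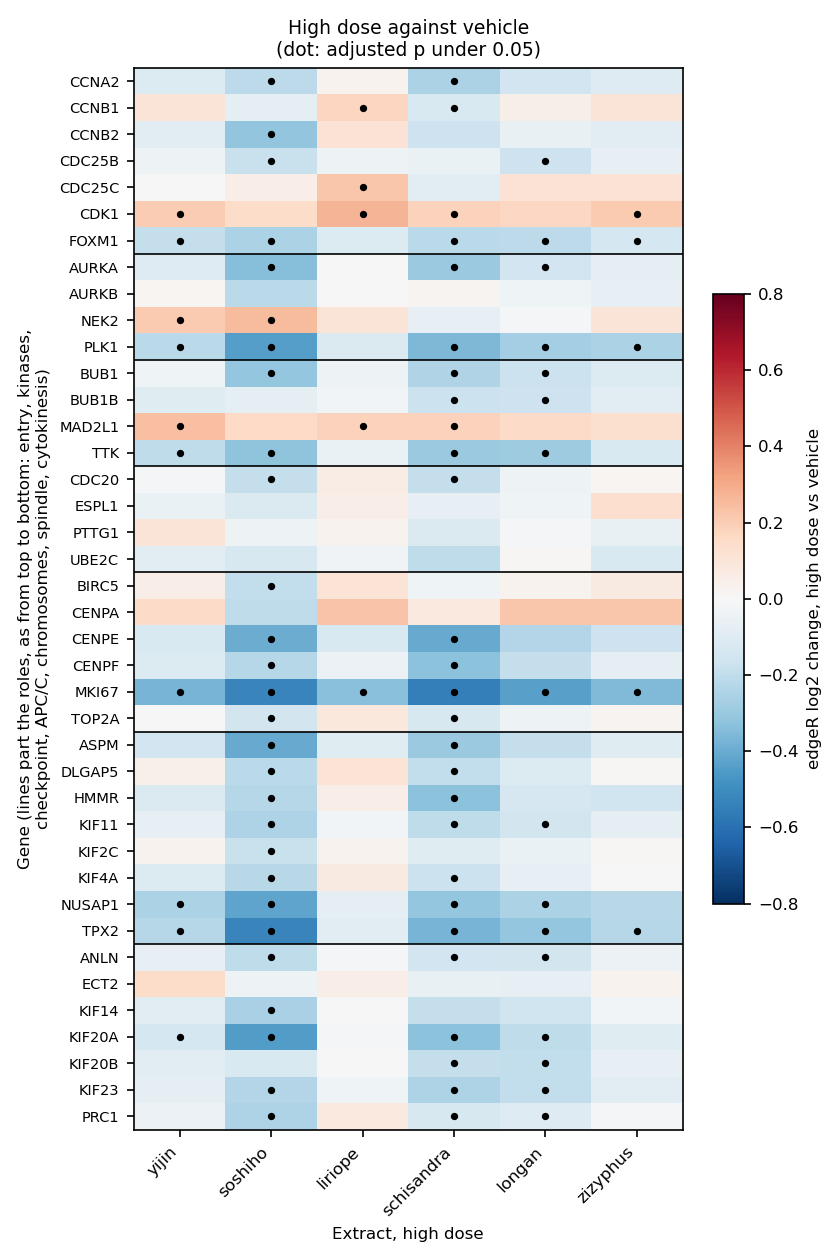
Change of each gene (rows, parted by role) between the high dose of the 6 replicated extracts (columns) and vehicle, as the edgeR log2 change. Dots mark an adjusted p under 0.05, of which soshiho has 28 and schisandra 27. MKI67 is lower in all 6 columns, and CDK1 and MAD2L1 are above 0 in all 6.

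The counts against vehicle depended on the scaling. With library size alone the median of all genes at the high dose against vehicle lay at about 0.10 above 0 (0.098 to 0.126), and the members' median was -0.12 in soshiho and -0.09 in schisandra. The share of called genes that were higher than vehicle was then 77.4% to 91.5% over the 6 extracts and 3 doses, where it was 43.2% to 49.2% with the trimmed mean scaling. Members lower and higher at the high dose became 13 and 3 in soshiho, 13 and 2 in schisandra, 3 and 6 in longan, 3 and 8 in yijin, 2 and 11 in zizyphus and 0 and 14 in liriope. The share of all genes called in each direction with this scaling is not set beside these counts. They are therefore not read as a result about the members. Without vehicle replicate 1 the lower counts were 16 in soshiho, 15 in schisandra, 7 in longan and 4 in yijin, and other single libraries took them to 17 in soshiho (high-dose replicate 3), to 8 and 10 in longan (high-dose replicates 1 and 2), to 4 in yijin (high-dose replicate 3), to 2 in zizyphus (high-dose replicate 2) and to 5 in liriope (high-dose replicate 2). The few higher members fell to 2 in liriope without vehicle replicate 2, to 1 in schisandra without vehicle replicate 1 or 3 or high-dose replicate 3 and to 0 without its high-dose replicate 2, and to 0 in soshiho without its high-dose replicate 2. In zizyphus they were 0 without its high-dose replicate 2 and 2 without its high-dose replicate 3. Of the genes called lower against the low dose, 10 of 10 in soshiho and 13 of 16 in schisandra were also lower against vehicle, with the same high-dose libraries in both comparisons. With 1 of 6 libraries left out, schisandra CCNB1 lost its call against vehicle in 5 fits, DLGAP5 in 3, TOP2A and CDC20 in 2 each and CENPE in 1. AURKA, HMMR, KIF11 and TPX2 kept theirs. CCNB1 had 137, 128 and 122 CPM at the low schisandra dose, against 116, 122 and 123 CPM in vehicle.

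Members also differed from vehicle at the lower doses, in liriope and zizyphus in larger number at the low than at the high dose. At the low dose 5 were lower and 1 higher in yijin (15.4% of all genes called in either direction), 4 and 2 in soshiho (11.9%), 9 and 1 in liriope (16.6%), 7 and 2 in schisandra (21.5%), 12 and 1 in longan (20.2%) and 9 and 1 in zizyphus (16.6%). At the medium dose 4 were lower and 4 higher in yijin (16.6%), 1 and 4 in soshiho (10.2%), 5 and 4 in liriope (18.4%), 12 and 2 in schisandra (19.9%), 9 and 2 in longan (19.1%) and 4 and 1 in zizyphus (16.7%). In either direction the share of members called was near or below that over all genes in low-dose yijin, soshiho and schisandra. The same held in medium-dose yijin, soshiho, liriope and zizyphus. Several of the counts against vehicle at the lower doses rested on 1 library. Without vehicle replicate 1 the members called in either direction were 4 in low-dose liriope, 8 in low-dose longan, 8 in medium-dose schisandra and 3 in medium-dose soshiho, and without vehicle replicate 2 or 3 they were 2 in medium-dose soshiho. Low-dose soshiho had 1 without its replicate 3, low-dose liriope 3 and 6 without its replicates 1 and 2, low-dose longan 6 and 7 without its replicates 1 and 2, and low-dose zizyphus 5 without its replicate 1. Medium-dose soshiho had 0 and 2 without its replicates 2 and 3, medium-dose schisandra 8 and 7 without its replicates 2 and 3, and medium-dose longan 5 without its replicate 1.

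In polygala each dose had 1 library, so the differences have no replicate check and no p is given. At 250 µg/mL 21 of the 40 genes were lower and 0 higher than at 10 µg/mL by over 1.5-fold, where 21.3% of the 9874 genes with enough CPM were lower and 17.6% higher. The members' median difference was -0.72 on the log2(CPM + 1) scale, beside 0.02 over all genes. TOP2A had 545, 467 and 146 CPM at the low, medium and high dose. CDC20 had 111, 97.8 and 36.1 CPM, KIF20A 82.0, 65.6 and 25.6 CPM, and HMMR 39.1, 35.8 and 11.4 CPM. All of them were lower at each step, with the larger step at the high dose. CDC25C, the next largest difference, had 21.5, 19.7 and 8.70 CPM.

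Not all members followed in polygala. CDK1 had 54.1, 58.9 and 72.7 CPM at the low, medium and high dose, MAD2L1 47.0, 51.2 and 60.3 CPM, and FOXM1 198, 184 and 234 CPM. The centromere histone CENPA had 21.4, 21.7 and 24.6 CPM, and KIF23, a midzone motor, 53.3, 48.2 and 58.0 CPM. CDK1 and MAD2L1 thus went up at each step while cyclin B1 had 123, 126 and 72.8 CPM. Over the 3 doses 23 of the 40 genes (57.5%) were lower at each step and 3 (7.5%) higher, beside 31.4% of all genes lower and 32.8% higher. Against the vehicle mean 23 were lower and 0 higher at the high dose, where 22% of all genes were lower and 19.1% higher. With library size alone the all-gene median moved to 0.26, and 15 members were lower and 1 higher between high and low dose. The hepatocyte marker sum was 45535, 37792 and 18390 CPM at the low, medium and high dose, so it was lower together with the members, and its part in the result was not tested.

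In aucklandia, also with 1 library per dose, 20 of the 40 genes were lower and 0 higher at 280 µg/mL than at 11.2 µg/mL by over 1.5-fold, where 22.4% of the 9976 genes were lower and 21.2% higher. The members' median difference was -0.58, beside -0.02 over all genes. CCNA2 (cyclin A2) had 144, 134 and 50.7 CPM at the low, medium and high dose, TOP2A 570, 441 and 211 CPM, and BUB1B (BubR1) 71.3, 64.5 and 28.0 CPM. KIF20A had 82.5, 63.3 and 35.7 CPM. All were lower at each step. CDK1 had 55.2, 54.8 and 27.9 CPM and MAD2L1 53.5, 48.9 and 21.6 CPM, both lower at the high dose, where in polygala both were higher.

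The aucklandia genes that rose most from low to high dose dipped at the medium dose, as nearly all members did. The members' median difference between medium and low dose was -0.22, beside 0.01 over all genes. CDC25B had 113, 109 and 146 CPM at the low, medium and high dose, ECT2 70.4, 54.5 and 90.6 CPM, and CENPE 50.3, 39.2 and 63.0 CPM. CDC25C (19.9, 16.7 and 22.8 CPM) and the checkpoint kinase TTK (26.1, 21.3 and 27.1 CPM) had the same shape. TPX2, with 296, 266 and 290 CPM, ended near its low-dose level. Over the 3 doses 27 genes (67.5%) were lower at each step and 0 higher, beside 22.9% of all genes lower and 23.1% higher. Against the vehicle mean 22 were lower and 0 higher, where 22.3% of all genes were lower and 20.9% higher. Hepatocyte markers summed to 43524, 36367 and 21238 CPM over the 3 doses, and their part in the result was not tested.

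Past 1.5-fold in both polygala and aucklandia were 9 genes, CCNB1, CCNB2, CENPF, DLGAP5, KIF20A, KIF20B, MKI67, PLK1 and TOP2A, which are 42.9% of the 21 and 45% of the 20. In aucklandia 20 of all 40 members were past the fold, a larger share than among the 21 polygala genes. Lists of this length share such a number of genes without a link, so the 9 are no sign of a common set. No overlap over all genes was computed. The top doses differ, so no comparison of size was made between the 2 extracts.

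**Figure D5:**
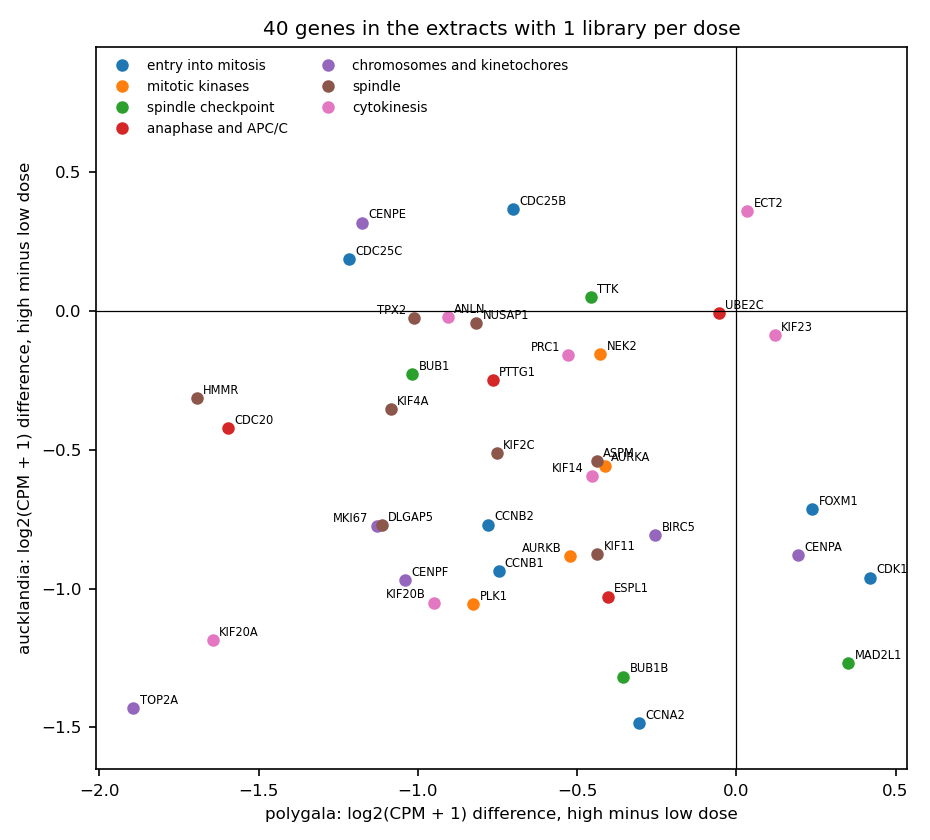
Difference between high and low dose on the log2(CPM + 1) scale for each of the 40 genes in polygala (x axis) and aucklandia (y axis), coloured by role, with 1 library per dose. TOP2A and KIF20A lie low on both axes, and CDK1, MAD2L1, FOXM1 and CENPA lie above 0 in polygala and below 0 in aucklandia.

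Further genes of the same pathway had smaller median changes than the 40. Of 57 other mitosis and G2/M genes, soshiho lowered 8 between high and low dose and raised 0 (median -0.10), led by FAM83D, a spindle protein (-0.37, edgeR adjusted p = 6.58e-07), and NCAPD2, a condensin subunit (-0.29, edgeR adjusted p = 1.22e-06). Schisandra lowered 13 and raised 0 of them (median -0.10), among them NCAPD2 (-0.17), the condensin subunit SMC4 (-0.23) and the kinase PBK (-0.27). Of all genes 2.11% were lower in soshiho and 3.62% in schisandra. Schisandra lowered 6 of them (median -0.05) without the 2 libraries that stood apart. Yijin lowered 1, NCAPD2 (-0.12), and raised 1, ARHGAP11A (0.15), where 3.91% of all genes were lower and 3.92% higher. In polygala 9 of 56 were lower and 6 higher past 1.5-fold (median -0.10), in a library where 21.3% of all genes were lower and 17.6% higher, so these shares were below those over all genes. In aucklandia 24 of 57 were lower and 3 higher (median -0.41), beside 22.4% of all genes lower and 21.2% higher.

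The DNA replication genes of S phase gave few calls. Of 41 S phase genes soshiho lowered 2, the helicase subunits MCM3 (-0.15) and MCM2 (-0.19), with a median of -0.04, and schisandra raised 1, the licensing factor CDT1 (0.17), with a median of -0.02. These counts stand beside 2.11% of all genes lower in soshiho and 3.78% higher in schisandra. Yijin raised 3, RRM2 (0.19), CDC45 (0.26) and MCM10 (0.16), where 3.92% of all genes were higher. With the 2 libraries that stood apart left out, soshiho lowered 3 and raised 1 and schisandra raised 2. In polygala 14 of the 41 were lower and 3 higher past 1.5-fold (median -0.28), beside 21.3% of all genes lower and 17.6% higher. In aucklandia 33 were lower and 0 higher (median -1.03), beside 22.4% of all genes lower and 21.2% higher. That median difference was larger than that of the mitosis genes in the same library.

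Among 36 regulators of the cycle, soshiho raised CDKN1A, the CDK inhibitor p21 (0.54), and the growth factor-responsive transcription factor MYC (0.34) and lowered CDKN2C, the CDK inhibitor p18 (-0.29), and E2F3 (-0.18), where 2.96% of all genes rose and 2.11% fell. Schisandra lowered 3 and raised 5 of them, where 3.62% of all genes fell and 3.78% rose, with MYC at 0.26, CDKN1A at 0.23, CDKN2C at -0.27 and CDK2 at -0.16. Schisandra lowered 2 and raised 2 without the 2 libraries that stood apart, and soshiho then lowered 4 and raised 2. In yijin MYC was the single regulator called (0.24). Past 1.5-fold, 2 of 32 regulators were lower and 4 higher in polygala (median 0.02), below the shares over all genes. In aucklandia 12 of 32 were lower and 5 higher (median -0.27), beside 22.4% of all genes lower and 21.2% higher. CDKN1A had 94.3, 83.5 and 83.6 CPM at the low, medium and high dose of polygala (-0.17 on the log2(CPM + 1) scale) and 90.5, 129 and 368 CPM at those of aucklandia (2.01).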

How the data were processed

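The deposited table holds expected counts per Ensembl gene for 60 HepG2 libraries, made by the authors from reads of a directional library kit. The submitters' processing notes name FastQC 0.11.9, Trim Galore 0.6.5, STAR 2.7.3a, RSEM 1.3.3 and the build hg38. The annotation release and strand setting are not given in the sources used here. Before testing, each value was rounded to a whole count, since 10.4% of them held a fraction.

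The 54 libraries of the 19 groups with replicates went into 1 edgeR 4.0.16 model under R 4.3.3 (trimmed mean of M values, filter by group, quasi-likelihood test, Benjamini-Hochberg adjusted p under 0.05 over 16924 genes). Each dose was compared with vehicle, the medium and high dose with the low dose, and dose responses between extracts through an interaction contrast. Medians over a list were set beside those over all genes, with no test of the list. The members, gene lists and comparisons were chosen with earlier results of these data known. Named genes were the 8 central genes CDK1, CCNB1, PLK1, AURKA, CDC20, TOP2A, MKI67 and FOXM1, up to 8 called members with the smallest high against low p per extract, the 5 largest and 5 smallest differences in polygala and aucklandia, and up to 4 called genes of each related list. Any further gene was chosen after its values were seen. No p is given for polygala and aucklandia, which had a single library at each dose, and their log2(CPM + 1) differences cover genes of at least 10 CPM. Promoters came from RefSeq (GRCh38.p14) by symbol, and where a gene had several entries the first was kept. Replicate pairs differed by a chi-square per degree of freedom of 2.70 to 63.9, so the spread exceeds counting error. The fit was tested on simulated counts. Alternatives were DESeq2 1.42.0, other scalings and filters, fewer groups, a replicate block and each library left out.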

Additional observations from a re-analysis of the deposited data

Results flagged for a closer look

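The dose response (high minus low dose) of schisandra was lower than that of liriope in 16 of the 40 genes by edgeR's interaction test, and 1 library of each of these extracts stood apart from its group. The count was 7 without those 2 libraries and 0 with only the compared groups fitted. Schisandra's response was also lower than that of yijin in 4 genes, and in 0 under either of these alternatives. Soshiho's was lower than yijin's in 3 genes, in 9 without those libraries and in 13 with only the compared groups fitted. Each count is of genes whose difference between extracts itself passed an adjusted p under 0.05.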

How the results depend on the processing

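For the 49 counts of members called, 624 values under alternatives were computed, of which 505 lay within 1.5 times the value reported and 119 moved further. Shares of all genes called under each alternative are not given beside these values, which show only how far the counts moved. For named genes, 0 of 1137 values reversed, 1047 stayed on their side of the threshold, 75 lost a call and 15 gained one. The causes of the moves were not tested.

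With DESeq2, high-dose longan had 1 member higher than vehicle (0 reported), liriope 2 lower (1), soshiho minus yijin 5 (3) and yijin high against low 1 (0). Size factors by RLE gave 1 higher in longan against vehicle. A filter of at least 1 CPM in 2 libraries gave 2 higher in longan, 2 lower in liriope and 1 in yijin high against low. With library size alone, members higher than vehicle at the high dose were 14 in liriope, 6 in longan, 3 in soshiho, 8 in yijin and 11 in zizyphus, and members lower were 0 in liriope, 3 in longan, 13 in schisandra, 13 in soshiho, 3 in yijin and 2 in zizyphus. The same setting gave 16 in soshiho high against low, 17 in low-dose schisandra, 9 in medium-dose soshiho and 16 in medium-dose zizyphus against vehicle, 5 for soshiho minus yijin, and in polygala 1 higher against the low dose and 3 against vehicle. Without a filter, longan had 1 and zizyphus 2 higher than vehicle, low-dose liriope 6, longan 8 and zizyphus 5 against vehicle, medium-dose soshiho 3 and yijin 5 against vehicle, medium against low schisandra 1 and schisandra minus yijin 8.

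With only the compared groups fitted, high-dose liriope had 1 and longan 2 higher than vehicle, low-dose liriope 6, schisandra 2 and zizyphus 5 against vehicle, and medium-dose soshiho 2. High against low gave 1 in schisandra, 25 in soshiho and 2 in yijin, and the differences of dose responses gave 0 for schisandra minus liriope, 0 for schisandra minus yijin and 13 for soshiho minus yijin. Without the 2 libraries that stood apart, an alternative chosen after seeing the data, longan had 3, soshiho 3 and zizyphus 2 higher than vehicle and liriope 5 lower. The same setting gave 14 in medium-dose liriope, 20 in longan and 10 in zizyphus, 14 in low-dose schisandra and 11 in yijin against vehicle, and 8 in schisandra, 16 in soshiho and 3 in yijin high against low. It gave 7 for schisandra minus liriope, 0 for schisandra minus yijin, 1 for soshiho minus schisandra and 9 for soshiho minus yijin.

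Deviations of same-numbered replicates within a code set had correlations from -0.35 to 0.41, with medians of 0.021 to 0.135 per set and replicate number. Such values do not settle whether the numbers pair the samples, and the main fit held no replicate block. With the replicate block, high against low gave 17 in schisandra and 13 in soshiho, and against vehicle soshiho had 2 higher and liriope 2 lower.

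Leaving out 1 library at a time gave 4 to 22 calls in schisandra and 3 to 9 in soshiho high against low. At the high dose against vehicle, lower members ranged over 1 to 5 in liriope, 7 to 16 in longan, 15 to 25 in schisandra, 16 to 25 in soshiho, 4 to 6 in yijin and 2 to 5 in zizyphus, and higher members over 2 to 4 in liriope, 0 to 2 in schisandra, 0 to 1 in soshiho and 0 to 2 in zizyphus. At the low dose against vehicle the range was 3 to 8 in liriope, 6 to 12 in longan, 1 to 5 in soshiho and 5 to 10 in zizyphus, and at the medium dose 5 to 13 in longan, 7 to 15 in schisandra and 0 to 3 in soshiho. It was 0 to 1 for schisandra medium against low, 8 to 22 for schisandra minus liriope, 0 to 8 for schisandra minus yijin, 0 to 1 for soshiho minus schisandra and 0 to 3 for soshiho minus yijin. The SE of a member's log2 change between high and low dose was 0.038 to 0.15, which bounds the changes that could be told from 0.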
